A study of Saccharomyces cerevisiae with 2 samples.

Results

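The chaperone and heat shock genes of budding yeast (Saccharomyces cerevisiae) were examined as 1 group of genes on tiling arrays of nucleosomal DNA. They were chosen by name, for the known function of their products, and numbered 41 of the 5670 nuclear genes named on the array. By role they comprised 11 stress-induced genes, 16 constitutive chaperones and co-chaperones, the 8 subunits of the cytosolic chaperonin and the 6 subunits of prefoldin. Each of 2 arrays, replicate 1 and replicate 2, compared nucleosomal DNA in Cy5 with genomic DNA in Cy3, and the arrays formed 1 group with no second strain or treatment. The cells of both arrays had been arrested with the mating pheromone alpha factor. The nucleosomal DNA came from chromatin cut with MNase (micrococcal nuclease, which cuts the linkers between nucleosomes) and the genomic DNA from chromatin sheared by sonication. Both arrays had the same dye orientation, and no heat shock was part of the design.

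Chaperones bind unfolded or partly folded proteins and help them to reach or regain their shape. The Hsp70 and Hsp90 families work with co-chaperones such as the J-proteins, Hsp104 pulls proteins out of aggregates, and the chaperonin, supplied by prefoldin, folds actin and tubulin inside its ring. In yeast heat-inducible genes are switched on by the heat shock factor Hsf1 and by the stress factors Msn2 and Msn4. The members listed here as constitutive are transcribed in unstressed, growing cells. That listing does not mean that heat leaves them unchanged, so the roles do not part inducible from non-inducible genes. The stretch upstream of a yeast gene usually holds a region poor in nucleosomes, flanked by positioned nucleosomes that continue into the coding region.

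Values are given as log2 of Cy5 over Cy3 after setting each array's median to 0, so 0 is the typical probe of the array and not an absence of nucleosomes. Where a pair of values is given for a gene or probe, the first is from replicate 1 and the second from replicate 2. Differences are differences of such log2 ratios. The direction of the ratio was taken from the labels. Mitochondrial DNA, which carries no histones, nevertheless had median log2 ratios of 4.50 and 4.54 over 222 probes on replicates 1 and 2, against -0.0052 and -0.0050 over the nuclear probes, so values are given as a channel ratio and no value is called nucleosome-rich or nucleosome-poor. The median raw spot was brighter in Cy5 (32997 and 33242) than in Cy3 (17885 and 16928). The SD of the difference between the arrays over all kept nuclear probes was 0.0623. The labels do not say that the arrays came from separate cultures, so a p-value reflects no more than how far this pair of arrays differed, possibly for technical reasons alone. With so small a spread most genes of the genome passed the test in one direction or the other.

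The group was covered by 290 probes, of which 289 were kept: 81 upstream of the genes (shared divergent regions included), 190 of 191 inside coding regions and 18 downstream. Coding regions were measured in 41 members and upstream regions in 38. CCT2, GIM3 and GIM5 had no upstream probe, and 16 members had only 1. Probe positions were taken from the annotation of the array, for which the sources used here name no genome build.

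Upstream regions of the chaperone genes lay above the array median less far than those of the genome. The median over the 38 members was 0.47 on both arrays, against 0.82 and 0.84 over 5194 nuclear genes. The call rate of the genome was high: limma called 76.9% of all nuclear genes above 0 upstream and 19.8% below. Of the members, 25 of 38 were called above and 11 below, with adjusted p-values from limma between 2.31e-07 and 0.0465. HSP42 (adjusted p = 0.364) and SSB2 (adjusted p = 0.262) were not called.

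The members' upstream means lay in the middle and lower part of the genome's range. Of the 38 means, 10 include a probe saturated in Cy5 on both arrays, CCT6, SSA1, SSE2 and HSP104 among them, and are lower bounds, so ranks among the high values are ranks of measured values only. As measured, the highest was CCT6, at 1.54, with 1399 nuclear genes (26.9%) measured higher. As measured, 0 of 38 members lay above the upper quartile of all genes, at 1.62, a count that could be higher without saturation, and 13 of 38 lay below the lower quartile, at 0.13. With dim and saturated spots left out, the counts were 0 and 12 of 35. By the median of all genes, 13 members were higher and 25 lower. The count above the upper quartile was 5 of 38 when only the upstream probe nearest to each gene was used, 3 with another background correction (normexp) and 1 after loess, so it depended on how the upstream value was formed. Single probes over 2 were 12 of the 81 upstream probes of the members (14.8%), against 1910 of 9173 of all nuclear upstream probes (20.8%). Tested one by one with limma, 47 of these 81 probes were above 0 and 31 below, where 65.4% and 30.7% of all nuclear upstream probes were.

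Coding regions of the chaperone genes had a median close to that of all nuclear genes. Their median was -0.14 on replicate 1 and -0.12 on replicate 2, against -0.081 and -0.084 over 5469 nuclear genes. Limma called 38.3% of all nuclear genes above 0 in the coding region and 55.6% below, and 16 of 41 members above and 23 below. CCT4 (adjusted p = 0.437) and CCT6 (adjusted p = 0.312) were not called. Of the 41 members, 11 lay above the upper quartile of all genes (0.19) and 10 below the lower quartile (-0.33). Both counts are close to the share of all genes that lies beyond each quartile. Of the 190 coding probes, 75 were called above 0 and 102 below, where 40.4% of all nuclear coding probes were called above and 52.9% below. With normexp background correction 6 members were called above 0 in the coding region. The median was then -0.16 in the members and -0.14 over all nuclear genes. The share of all nuclear genes called with normexp is not given here, so this count cannot be set against the genome.

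The upstream minus coding difference had a lower median in the members than over all nuclear genes. Its median was 0.47 on replicate 1 and 0.48 on replicate 2 in the members, against 0.92 on replicate 1 and 0.93 on replicate 2 over 5010 nuclear genes. Limma called 77.9% of all nuclear genes above 0 in this difference and 18.8% below. Of the 38 members 27 were called above and 8 below. The 8 called below were HSP78, HSP82, SSA3, SSB1, SSC1, CPR6, STI1 and CCT4. The upstream values of HSP82 and SSB1 include a saturated probe, so their measured differences are lower bounds and their direction is not fixed. With dim and saturated spots left out, HSP82 was not called (-0.010, limma adjusted p = 0.673). SSA4 (adjusted p = 0.511), CTT1 (adjusted p = 0.416, but called below 0, at -0.45, with dim and saturated spots left out) and SSB2 (adjusted p = 0.399) were not called.

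**Figure D1:**
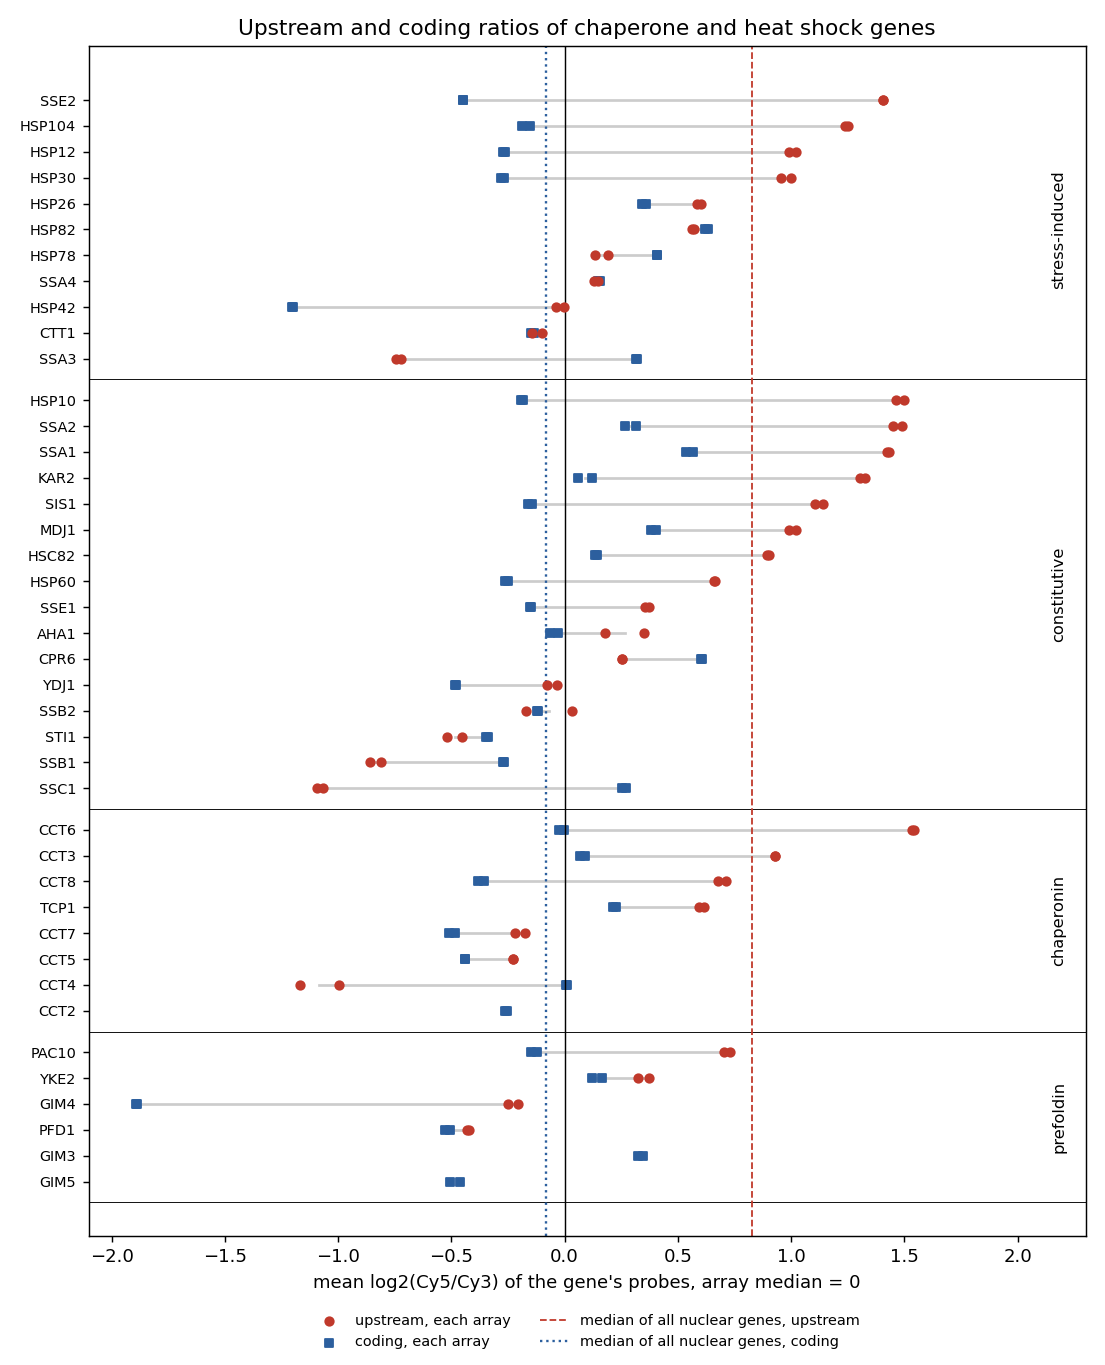
Mean log2 ratio of Cy5 over Cy3 (array median 0) of each member, upstream and coding, with a point for each of the 2 arrays, grouped by role. Points of the 2 arrays nearly coincide for most members, SSB2 and AHA1 upstream being among the exceptions, and the genes differ from each other far more than the arrays do.

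The stress-induced genes encode proteins that yeast makes in quantity after heat or other stress. Upstream, 8 of the 11 were called above 0, 2 below and 1 not, with a median of 0.57, which was 0.26 with normexp and 0.16 with dim and saturated spots left out. Coding, 5 were called above and 6 below, with a median of -0.14, which was 0.15 when non-uniform and dim spots were kept. The upstream minus coding difference had a median of 0.24, with 6 called above, 3 below and 2 not, and the median was -0.010 with dim and saturated spots left out. Of all nuclear genes, limma called 76.9% above 0 and 19.8% below upstream, and 38.3% and 55.6% coding. In the difference it called 77.9% of them above and 18.8% below.

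SSE2, a nucleotide exchange factor of Hsp70, was at 1.41 or higher upstream on both arrays, and its coding region averaged -0.45 ± 0.00011 (SD, n = 2). HSP104, the disaggregase, was at least at 1.25 and 1.24 upstream on replicates 1 and 2, and its coding region averaged -0.17 ± 0.024 (SD, n = 2). Each upstream value rests on 1 probe, on chromosome 2 at 576246 to 576305 for SSE2 and on chromosome 12 at 88498 to 88556 for HSP104, and on each array both probes had reached saturation in Cy5 but not in Cy3. Both ratios are therefore lower bounds, and their order is not known.

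Along HSP104, values did not run one way. Its first coding probe was at -1.11 on replicate 1 and -1.12 on replicate 2, the lowest of its 11, while the probe 696 bp further on was at 0.81 and 0.80. In all, 4 of its coding probes were above 0 and 7 below.

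HSP12, a small membrane-associated stress protein, and HSP30, a stress-induced plasma membrane protein, had measured upstream means of 1.01 ± 0.021 and 0.98 ± 0.031 (SD, n = 2). Both means are lower bounds, since each includes a probe saturated in Cy5 on both arrays. Each mean rests on a single high probe. HSP12 shares its region with MDJ1, whose product is a mitochondrial J-protein and also a member. Of the 3 probes between the genes, the one next to MDJ1 was at 2.87 and 2.84 (chromosome 6, 106299 to 106358), the middle one at -0.13 and -0.044, and the one next to HSP12 at 0.24 and 0.26. The shared mean therefore joins a high probe on the MDJ1 side and values closer to 0 on the HSP12 side, and the middle probe was saturated in Cy5.

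At HSP30, 5 upstream probes were kept. The probe 488.5 bp before the first coding probe (chromosome 3, 157538 to 157596) averaged 3.23 ± 0.0036 (SD, n = 2). The other probes of the region lay between -0.29 and 1.10, and the nearest of them, at 0.53 and 0.46, was saturated in Cy5. The coding mean of HSP30 was -0.28 on replicate 1 and -0.27 on replicate 2. A further coding probe, the first of the gene, was left out because its spot was not uniform. It measured 1.62 and 1.85, and the distances at HSP30 are counted from it. With it the coding mean was 0.23, so the sign of this coding value rests on that probe.

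HSP42, a small heat shock protein that collects misfolded proteins, had the lowest coding region of the stress-induced genes, with -1.20 on both arrays. All 5 coding probes were below 0, from -0.79 to -1.76, and only 0.549% of nuclear genes had a lower coding mean. Its 3 upstream probes averaged -0.000938 on replicate 1 and -0.036 on replicate 2. The nearest of them was at -1.09 and -1.07, a value like those of the coding region, and the next at 0.87 and 0.81.

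HSP82, the inducible Hsp90, had the highest coding mean of all members, at 0.64 and 0.62 on replicates 1 and 2, and 318 nuclear genes lay higher. Its first coding probe was at 1.49 and 1.54, the second at -0.62 and -0.69 and the last at 0.027 and 0.0025, so the high values lay in the front and middle of the gene. Upstream it was at 0.56 and 0.57, with its nearest probe saturated in Cy5. The upstream minus coding difference of -0.063 ± 0.016 (SD, n = 2) passed narrowly (limma, adjusted p = 0.0363), and after loess it was 0.18.

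HSP78, the mitochondrial relative of Hsp104, also began high. Its first coding probe was at 1.88 and 1.91 and the nearest upstream probe at 1.12 and 1.03, while the upstream probe beyond that was at -0.74 and -0.76. The mean over both upstream probes, 0.19 and 0.13, was therefore below the coding mean of 0.41 on both arrays, although the nearest probe was above it.

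HSP26, the other major small heat shock protein, was even along its region. Its 3 upstream probes lay between 0.45 and 0.79, and its upstream mean was 0.60 and 0.58, above a coding mean of 0.34 and 0.36. CTT1, the cytosolic catalase, shares its region with PDC6. Its 4 nearest upstream probes were all below 0, down to -0.91 and -0.92 at the nearest, and the probe at the PDC6 end was at 1.67 and 1.60. CTT1 thus averaged -0.10 on replicate 1 and -0.15 on replicate 2 upstream, against -0.14 and -0.15 coding.

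SSA3 and SSA4 encode the heat-inducible cytosolic Hsp70 proteins. SSA3 had the lowest upstream value of the class, with -0.74 and -0.72 from 1 probe (chromosome 2, 86504 to 86563), and 5.31% of nuclear genes lay lower. Its coding region was at 0.32 on both arrays. SSA4 averaged 0.15 and 0.13 upstream, against 0.15 and 0.16 coding. Its nearest upstream probe was at 0.84 and 0.75, and the other 2 were below 0. After loess the upstream means of SSA4 and CTT1 turned sign, to -0.039 and 0.019.

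**Figure D2:**
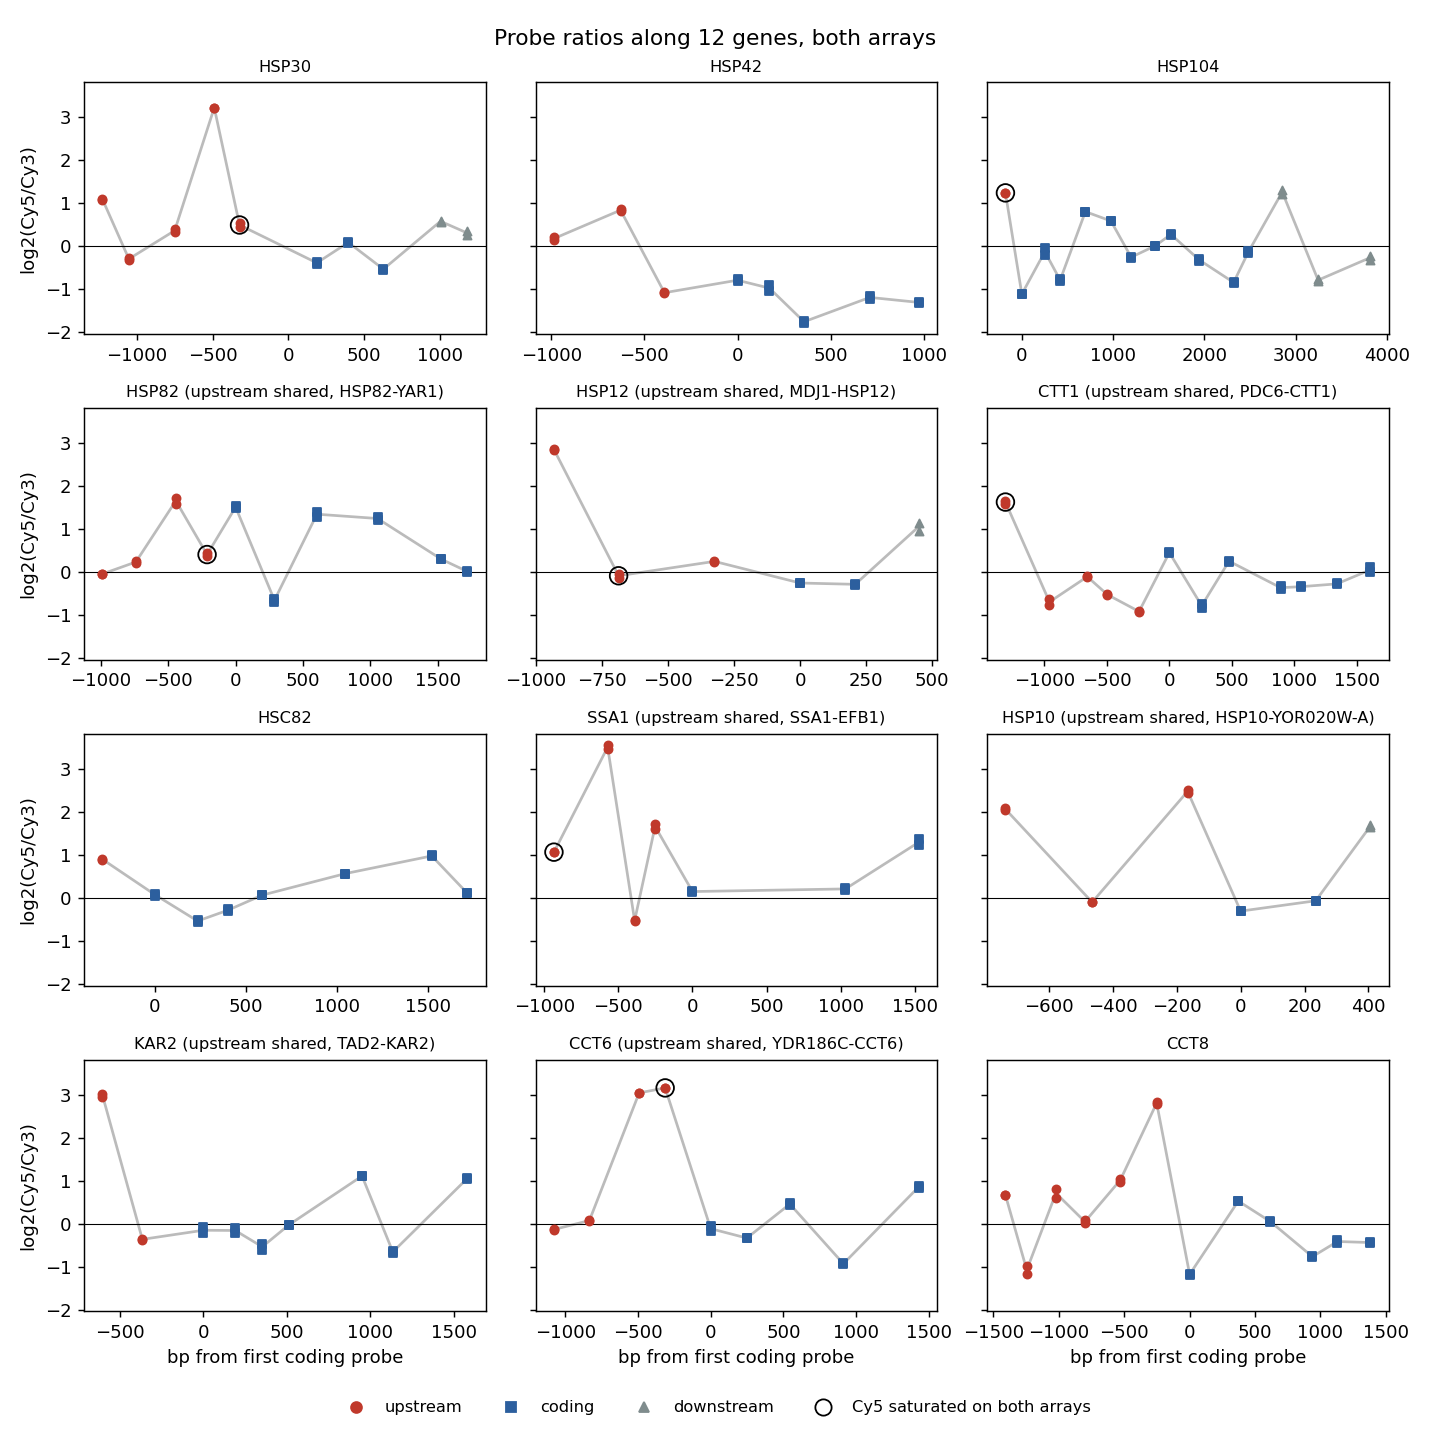
Log2 ratio of Cy5 over Cy3 (array median 0) of single probes along selected members, against distance in bp from the first coding probe, with a point for each array. HSP30 has a single upstream probe at 3.23, and all 5 coding probes of HSP42 lie between -0.79 and -1.76.

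The constitutive chaperones keep proteins folded in unstressed cells. Upstream, 11 of 16 were called above 0, 4 below and 1 not, with a median of 0.51. Coding, 7 were called above and 9 below, with a median of -0.083, which was 0.0078 after loess. The difference was called above 0 in 11, below in 4 and not in 1, with a median of 0.56. By the nearest upstream probe alone, 8 were called above, 7 below and 1 not, and the median was only 0.092. The shares of all nuclear genes called above and below 0 were 76.9% and 19.8% upstream and 38.3% and 55.6% coding. They were 77.9% and 18.8% in the difference and 66.9% and 29.6% at the nearest upstream probe.

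HSP10, the mitochondrial co-chaperonin, and SSA2, a constitutive cytosolic Hsp70, were the highest upstream as measured. HSP10 averaged 1.48 ± 0.025 (SD, n = 2) upstream, against -0.19 ± 0.0060 coding. The probe 166 bp before its first coding probe was at 2.45 and 2.51, the one in the middle of the region at -0.10 on both arrays, and the one next to the divergent gene YOR020W-A at 2.04 and 2.09. A low probe thus lay between 2 high ones.

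SSA2 was at 1.45 on replicate 1 and 1.49 on replicate 2. Its close relative SSA1 was at 1.42 and 1.43, and the mean of SSA1 held a single probe at 3.55 and 3.47, 572 bp before the first coding probe (chromosome 1, 141737 to 141794). A probe at -0.54 and -0.52 lay between that one and the gene. The region is shared with EFB1, an elongation factor gene, and the high probe was 700 bp from EFB1's nearest coding probe.

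HSP60, the mitochondrial chaperonin, had an upstream mean of 0.66 on both arrays, but again this was no even level. Its 4 probes, which it shares with LCB5, were at 0.35 nearest to HSP60, then -0.97, 3.48 and -0.22. The high probe (chromosome 12, 665590 to 665646) was at 3.47 on replicate 1 and 3.48 on replicate 2. KAR2, the Hsp70 of the endoplasmic reticulum, was alike: the probe on the side of its divergent neighbour TAD2 was at 2.96 and 3.02 and the one nearest to KAR2 at -0.35 and -0.38.

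Among the J-proteins, SIS1 was at 1.14 and 1.10 upstream. YDJ1 was near 0 there, at -0.076 on replicate 1 and -0.033 on replicate 2, and its coding region, at -0.48 on both arrays, was the lowest of this class. The low call of YDJ1 upstream was the weakest of the group (limma, adjusted p = 0.0465), and with normexp the value was 1.49. Its upstream probe 472 bp before the first coding probe was the dimmest of all member upstream probes in Cy5.

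SSC1, the Hsp70 of the mitochondrial matrix, was the lowest constitutive member upstream, at -1.07 and -1.09 from 1 probe shared with TAH11 (chromosome 10, 521665 to 521724). Its coding region opened high, with a first probe at 0.85 and 0.91, and averaged 0.27 and 0.25. Only 1.86% of nuclear genes had a lower measured upstream minus coding difference than its -1.34 ± 0.0066 (SD, n = 2), which is an upper bound, since 1 of its coding probes was saturated in Cy5. STI1, which links Hsp70 to Hsp90, was at -0.45 and -0.52 upstream, against -0.35 and -0.34 coding, and all 5 of its coding probes were below 0.

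CPR6, a prolyl isomerase that binds Hsp90, had the highest coding mean of the constitutive genes, at 0.61 and 0.60, and all 5 of its coding probes were above 0. Its 1 upstream probe was at 0.25 on both arrays and at -0.12 with normexp. AHA1, which stimulates the ATPase of Hsp90, averaged 0.35 on replicate 1 and 0.18 on replicate 2 upstream, one of the wider gaps between the arrays. Its probes were on either side of 0, with 1.20 and 0.89 at the far one and -0.50 and -0.54 at the near one. MDJ1's coding region averaged 0.40 on replicate 1 and 0.38 on replicate 2.

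The chaperonin, also called TRiC or CCT, is a double ring built of 8 different subunits. Of its 7 genes measured upstream, 4 were called above 0 and 3 below, where 76.9% and 19.8% of all nuclear genes were. The median of the 7 was 0.61, which was 0.36 after loess and 1.38 at the nearest upstream probe. Coding, 2 were called above, 4 below and 2 not, with a median of -0.14. The difference was called above 0 in 6 and below in 1. Of all nuclear genes, 38.3% were called above and 55.6% below coding, and 77.9% and 18.8% in the difference.

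CCT6 averaged 1.53 and 1.54 upstream, a lower bound since its nearest probe was saturated in Cy5, and 0.995 with dim and saturated spots left out. Both probes nearest to it were high, at 3.16 on both arrays 313.5 bp before the first coding probe (chromosome 4, 836244 to 836303) and at 3.04 and 3.05 at 492.5 bp (836065 to 836124), and both probes near the divergent gene YDR186C were close to 0. CCT3 and CCT8 had high nearest probes too, at 2.18 and 2.31 and at 2.79 and 2.82. The value of TCP1 at its nearest probe was 1.38 on both arrays. Further from these genes the values were mixed, so their upstream means were 0.93 for CCT3, 0.70 for CCT8 and 0.61 for TCP1.

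CCT4 was the lowest of all members upstream, with -1.08 ± 0.12 (SD, n = 2) from 1 probe shared with YDL144C (chromosome 4, 199706 to 199764), and 103 nuclear genes lay lower. Its coding mean was 0.013 and 0.0060. CCT5 was at -0.23 on both arrays upstream, against -0.44 coding on both. CCT7 was at -0.22 and -0.17 upstream, against -0.48 and -0.51 coding, the lowest coding mean of the class, with 6 of 6 coding probes below 0. TCP1 had the highest coding mean, at 0.21 and 0.23. CCT2 averaged -0.26 and -0.25 over its coding region. The nearest upstream probe of the 7 genes was thus at 1.38, the value of TCP1, or higher in 4 genes and below 0 in 3. Over all nuclear genes this probe had quartiles of -0.22 and 1.93, and limma called 29.6% of them below 0. The share of all genes at 1.38 or higher is not given here.

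Prefoldin is a jellyfish-shaped complex of small subunits that hands unfolded actin and tubulin to the chaperonin. Of the 4 subunit genes with an upstream probe, 2 were called above 0 and 2 below, with a median of 0.060. The median was -0.013 after loess and -0.067 without centring, so its sign depended on the scaling. Each of the 4 has only 1 upstream probe. In the coding region 2 of 6 were called above and 4 below, with a median of -0.31, and the difference was called above 0 in 4 of 4. Among all nuclear genes, 76.9% were called above 0 and 19.8% below upstream, and 38.3% and 55.6% coding. In the difference, 77.9% of them were called above and 18.8% below.

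PAC10 was the highest prefoldin gene upstream, at 0.73 and 0.70, followed by YKE2 at 0.32 and 0.37. PFD1 was the lowest, at -0.43 and -0.42, and its coding region was at -0.53 and -0.51. GIM4 was at -0.25 and -0.21 upstream. Its coding value came from 1 probe (chromosome 5, 148345 to 148404) and was -1.89 on both arrays, and only 4 nuclear genes had a lower coding mean. GIM3 was the highest coding region of the complex, at 0.35 and 0.33, and GIM5 was at -0.46 and -0.51.

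**Figure D3:**
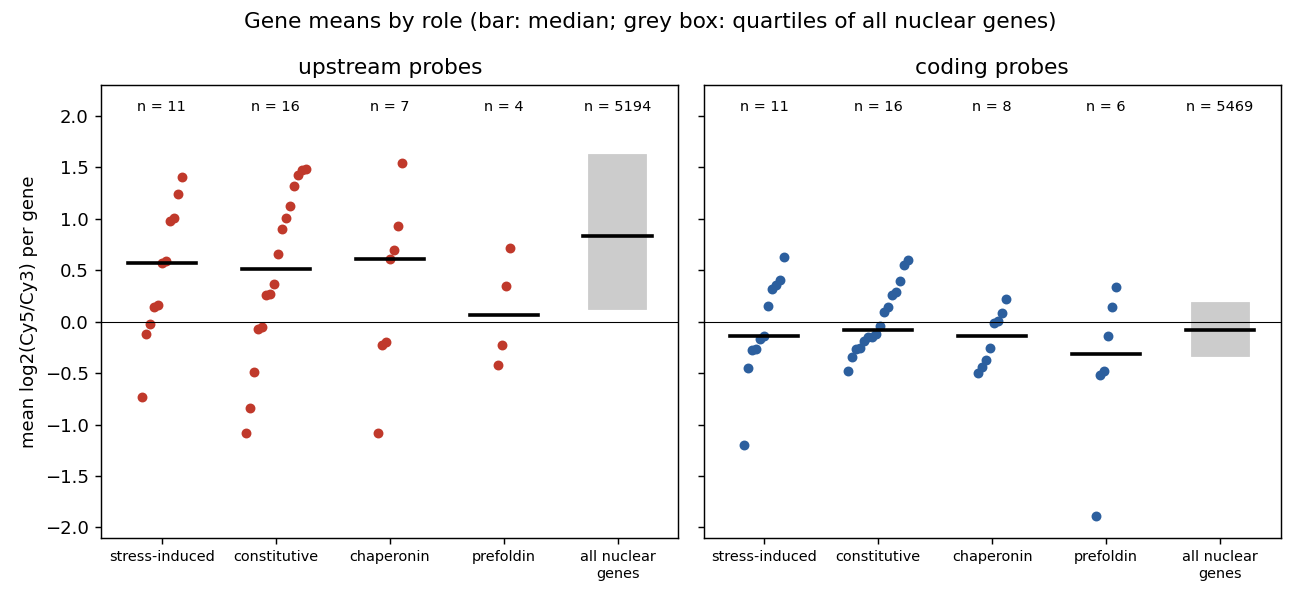
Distribution of gene means of the log2 ratio of Cy5 over Cy3 (array median 0) for the members of each role, left of all nuclear genes, upstream and coding; each point is a member. The members' measured upstream means stay at or below 1.54, with 10 of 38 being lower bounds because of saturated probes, and the upper quartile of all nuclear genes is at 1.62.

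The upstream probe closest to each gene gave a picture that differed from the mean in several genes. By it, 22 of 38 members were called above 0, 15 below and 1 not, where limma called 66.9% of all nuclear genes above and 29.6% below. The median was 0.35 on both arrays, against 0.70 and 0.69 over 5015 genes. SSE1, the constitutive relative of SSE2, was at 0.37 and 0.35 in the upstream mean but at -0.54 and -0.56 at its nearest probe. KAR2, AHA1, CCT7 and CTT1 likewise had a nearest probe below both the upstream mean and the coding mean. So did HSP82 as measured, but its nearest probe was saturated in Cy5.

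The first kept coding probe was compared in the 31 members with 3 or more kept coding probes. For HSP30 this was the probe after its first, which had been left out. Its median was -0.47 in 9 stress-induced genes, 0.11 in 14 constitutive genes and -0.33 in 8 chaperonin genes, against -0.028 over 4307 nuclear genes. The stress-induced genes ranged here from -1.39 in SSE2 to 1.90 in HSP78, so the median describes few of them closely. At the last coding probe the medians were 0.015 in the stress-induced, 0.26 in the constitutive and -0.22 in the chaperonin genes, against -0.081 over all nuclear genes. SSA3 changed most between the ends, with 1.29 and 1.34 at its last probe, against -0.66 and -0.69 at its first.

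A divergent region between 2 genes transcribed away from each other cannot be assigned to either. Of the members, 16 had such a region and 22 an unshared one, with median upstream means of 0.69 in the shared and 0.26 in the unshared regions. The region of HSP12 and MDJ1 counts for both genes, here and in the upstream means of all members. Over all nuclear genes the upstream median was 0.78 with shared regions left out, against 0.83 with them. Shared regions with at least 2 probes numbered 9, of which 1 lies between a pair of members, HSP12 and MDJ1. In the other 8 the highest measured probe was nearer to the member in 4 and nearer to the partner in 4. With shared regions left out, 14 of 22 members were called above 0 upstream, 6 below and 2 not. The share of all nuclear genes called in that setting is not given here, so these counts cannot be set against the genome.

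Downstream regions were measured in 12 members and were mostly above 0. The median was 0.68 on replicate 1 and 0.67 on replicate 2, against 0.21 and 0.22 over 1272 nuclear genes. Limma called 58.3% of all nuclear genes above 0 downstream and 35.5% below, and 10 of the 12 members above and 2 below. By probe, 12 of 18 were called above and 5 below, where 56.6% and 37.8% of all nuclear downstream probes were. HSP10 was the highest, at 1.65 and 1.69 from 1 probe. STI1 was at 1.24 and 1.27, the reverse of its low upstream and coding values, while CCT5 (-0.41 and -0.34) and SSE1 (-0.19 and -0.22) were below 0.

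Closely related genes were set side by side, first the pairs that hold a stress-induced gene. The inducible HSP82 and the constitutive HSC82, which encode nearly identical Hsp90 proteins, were compared by region. Upstream HSP82 averaged 0.57 and HSC82 0.90, a measured difference of -0.33 ± 0.0021 (SD, n = 2) that is a lower bound, since HSP82 has a saturated probe. Coding HSP82 averaged 0.63 and HSC82 0.14, a difference of 0.49 ± 0.0049. The inducible SSE2 was above the constitutive SSE1 upstream by at least 1.04 ± 0.015, since its probe was saturated, and below it in the coding region, where SSE2 averaged -0.45 and SSE1 -0.15. SSA4 and SSA3 are both listed as stress-induced. SSA4 was above SSA3 upstream by 0.87 ± 0.028 and below it in the coding region by a difference of -0.16 ± 0.0077. That coding difference is an upper bound, since SSA3 has a saturated coding probe. The direction upstream is thus fixed for SSE2 but not for HSP82.

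The constitutive pairs were compared in the same way. SSA1 minus SSA2 was -0.042 ± 0.021 (SD, n = 2) in the upstream mean, a lower bound because of a saturated SSA1 probe. At the nearest upstream probe SSA1 measured higher by 1.06 ± 0.055, but these probes were, after the far YDJ1 probe, the dimmest member upstream probes in Cy5, with log2 signals of 7.13 for SSA1 and 7.11 for SSA2. SSB1, an Hsp70 that binds nascent chains on the ribosome, was at -0.81 and -0.86 upstream from 1 probe saturated in Cy5, which makes the value a lower bound, and its twin SSB2 was at -0.17 and 0.033, the only upstream mean with opposite signs on the 2 arrays. The measured difference of -0.77 ± 0.18 is a lower bound too, and its direction is not fixed. With 2 arrays an exact sign-flip test cannot give a p below 0.5, so none was made, and coding probes of near-identical genes may hybridise to both copies.

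The brightness of the channels was compared with the ratio over the members' probes. Over the 81 upstream probes the log2 ratio had a Pearson correlation of 0.12 with log2 Cy5 and of -0.74 with log2 Cy3, and over all 9173 nuclear upstream probes of 0.25 and -0.77. These probes share the arrays, and the ratio contains both channels, so the correlations are descriptions. The 12 member upstream probes over 2 had a median log2 Cy5 signal of 10.8 and a median log2 Cy3 signal of 7.91. The other 69 had 10.6 in Cy5 and 10.6 in Cy3. These probes were picked by their ratio, which by itself favours a low Cy3 or a high Cy5 signal, and as measured they differed from the others mainly in Cy3. The part of probe base composition or labelling in this was not tested.

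Saturation in Cy5 touched 14 member probes on both arrays, none of them also saturated in Cy3. It affected an upstream probe of 10 members and all upstream probes of 3, SSE2, HSP104 and SSB1, and a coding probe of 4 members, SSA3, SSC1, MDJ1 and HSP60. Upstream means of the 10 and coding means of the 4 are lower bounds, which leaves the calls below 0 of SSB1 and CTT1 upstream and of HSP60 coding as calls on measured values. With dim and saturated spots left out, CTT1 averaged -0.56 upstream and HSP60 -0.14 coding, both still below 0.

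**Figure D4:**
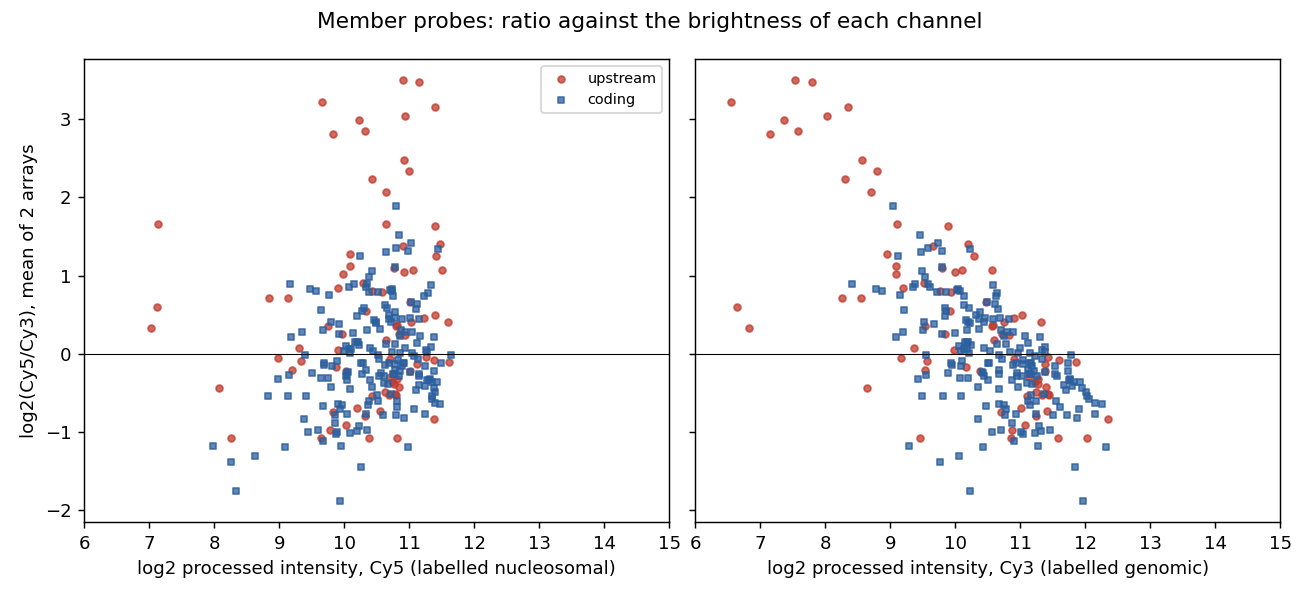
Log2 ratio of Cy5 over Cy3 (array median 0) of the members' upstream and coding probes against the log2 signal of Cy5 and of Cy3, each point a probe averaged over the 2 arrays. Ratios over 2 occur at low Cy3 signal, with a median of 7.91, while Cy5 there has a median of 10.8.

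Other genes of the chaperone and stress pathways, listed by function, were measured for context, and 44 of 45 were on the array. Upstream, 27 of 37 were called above 0, 6 below and 4 not, where 76.9% of all nuclear genes were called above and 19.8% below. Their median was 0.76, close to that of all nuclear genes (0.83). The 5 regulators were all called above 0, as were most nuclear genes: HSF1 was at 0.63, MSN2 at 0.62, MSN4 at 1.98, YAP1 at 2.34 and SKN7 at 1.20. SGT1 (3.24), a co-chaperone of Hsp90, and SSZ1 (3.17), an Hsp70-like protein on the ribosome, were the highest as measured, and MGE1 (-1.10), the exchange factor of Ssc1, and PLP2 (-1.05) were the lowest. In the coding region 13 of 43 were called above and 25 below, where 38.3% and 55.6% of all nuclear genes were. Coding means ran from 0.67 in HLJ1, a J-protein gene, to -1.31 in CUR1.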

How the data were processed

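Both arrays were 2-colour Agilent tiling arrays in 1 dye orientation, and the labels' protocols state linear amplification of the DNA. The deposited scanner files hold raw and processed spot intensity on a linear scale and a log10 ratio, per the file headers, made with Agilent Feature Extraction 9.1.3.1. The processed intensity is background-subtracted and dye-normalized by the authors' software, per the file headers. A deposited value table holds log2 values that equalled log2 of processed Cy5 over Cy3, uncentred, to within 5.00e-06 (medians -0.13 and -0.13). It served as an alternative, as did the log10 ratio for checking the deposited direction.

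Of 41775 probes (45 to 60 bases), 174 non-uniform and 147 with Cy3 not well above background were left out, which left 41454, of them 41232 nuclear. Log2 of processed Cy5 over Cy3 was centred on each array's median. Gene means of upstream, coding and downstream probes, by the array's annotation, and the upstream minus coding difference were tested against 0 with limma 3.58.1 (R 4.3.3; lmFit on an intercept, eBayes) over all nuclear genes, with p-values adjusted by Benjamini and Hochberg's method and called at 0.05. The fit was tested on simulated data with the same spread for all genes and effects in few of them. Most genes were called in the real data, so that test does not measure how accurate these calls are. The number of arrays limits the precision. Medians of a list are those of gene means. The members, the roles, the other pathway genes and the naming rule (all members reported, with the extremes of each role, related pairs and members with low upstream regions in full, and the extremes of the other pathway genes) were chosen with earlier results of these data known. Alternatives were normexp background correction (offset 50), loess, the uncentred table, other spot filters, the nearest upstream probe, divergent regions left out and each array left out.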

Additional observations from a re-analysis of the deposited data

How the results depend on the processing

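Of 933 values of single members under an alternative, 850 were counted as unchanged in direction and call. Another 41 kept the direction but lost the call, 15 gained it and 27 turned sign. The unchanged values include every value with 1 array left out, which had no test. They include SSB2 upstream and in the difference, although its sign there differed between the arrays. They also include 38 differences from the uncentred table, which a constant shift cannot change. Members called above 0 upstream numbered 14 with divergent regions left out and those below 6. Called above in the coding region they numbered 6 with normexp. In the difference 15 were called above with divergent regions left out, and 5 below there and 5 below with normexp. The shares of all nuclear genes called under these settings are not given here, so these counts cannot be set against the genome. Members above the upper quartile of all genes upstream numbered 3 (normexp), 1 (loess) and 5 (nearest probe), and those below the lower quartile 8 with divergent regions left out. Upstream, the median of all nuclear genes was 0.81 (normexp), 0.66 (loess), 0.70 (uncentred), 0.82 (dim and saturated spots left out), 0.70 (nearest probe) and 0.78 (divergent regions left out). The members' upstream median, lower in each of these settings, was 0.48 (normexp), 0.32 (loess), 0.34 (uncentred), 0.36 (dim and saturated spots left out), 0.35 (nearest probe) and 0.26 (divergent regions left out), and 0.468 to 0.472 with either array left out. In the same order it was 0.26, 0.53, 0.44, 0.16, 0.50 and 0.38 for the stress-induced and 0.68, 0.37, 0.38, 0.66, 0.092 and 0.26 for the constitutive genes. For prefoldin it was -0.013 (loess), -0.067 (uncentred) and -0.23 (divergent regions left out). The coding median was -0.16 (normexp), -0.10 (loess), -0.26 (uncentred), -0.12 (no filter) and -0.12 (dim and saturated spots left out), and -0.14 to -0.12 with either array left out. In the same order it was -0.066, -0.10, -0.27, 0.15 and -0.11 for the stress-induced genes, and with the first 3 settings -0.10, 0.0078 and -0.21 for the constitutive genes. The median difference was 0.54 (normexp), 0.36 (loess), 0.43 (dim and saturated spots left out), 0.26 (nearest probe) and 0.35 (divergent regions left out), and 0.47 to 0.48 with either array left out. That of the stress-induced genes was -0.010 without dim and saturated spots. The cause of these shifts was not tested, except that fewer members are measured where regions or spots are left out and that the uncentred table shifts every value by -0.13.

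Upstream values counted as turning sign were SSA4 (-0.039), CTT1 (0.019) and YKE2 (-0.026) with loess, YDJ1 (1.49), CPR6 (-0.12) and AHA1 (-0.057) with normexp, and SSE1 (-0.55), KAR2 (-0.36) and AHA1 (-0.52) at the nearest probe. Coding values that did so were HSP30 (0.23) without a spot filter, SSA4 (-0.066) and CCT3 (-0.036) with normexp, HSC82 (-0.00683), SSB1 (0.073), AHA1 (0.054) and YKE2 (-0.041) with loess, and KAR2 (-0.036) and CCT3 (-0.048) uncentred. Differences that did so were HSP78 (0.063) and PFD1 (-0.29) with normexp, HSP82 (0.18) and YDJ1 (-0.026) with loess, and HSP78 (0.67), SSE1 (-0.40), KAR2 (-0.45), AHA1 (-0.47) and CCT7 (-0.30) at the nearest probe.

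No paired analysis was possible because the arrays form 1 group. The GC correction was not run, since no probe sequences were used here, and promoter motifs were not searched for the same reason. With 1 array left out, values had no test. No array had its dyes swapped, so any dye bias remains in every mean. The upstream value of 16 members rests on 1 probe.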
